A study of Mus musculus with 4 samples.

Results

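The genes described here encode the enzymes that place and remove methyl groups on histones. They were chosen by symbol. The symbols are those of the lysine methyltransferase families (Kmt, Setd, Setdb, Ezh, Ehmt, Suv39h, Nsd, Smyd and Dot1l), the arginine methyltransferases (Prmt and Carm1), the PRC2 subunits Eed and Suz12, and the demethylases (Kdm). Of 40213 symbols in the deposited tables, 60 matched. They comprise 37 writers (methyltransferases and the core PRC2 subunits), 15 erasers (demethylases), and 8 proteins of the same SET, SMYD or JmjC families whose main substrate is not a histone or is not settled.

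RNA was sequenced from RAW264.7, a line of mouse macrophages transformed with Abelson leukaemia virus, 48 h after treatment. The sample titles give 2 libraries as CuNZ@Gel and 2 as Gel. The labels do not spell out CuNZ or describe Gel further, and their treatment text names CuNZ@Gel for all 4, so the groups rest on the titles. No label says that a group's libraries came from separate cultures, so the p-values cover a spread that may be purely technical. The title of the series speaks of an epigenetic effect of a nanozyme hydrogel on inflammation, a question on which the levels of these enzymes bear.

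Methylation of histone lysines carries different meanings at different positions. Methylation of H3K4 marks promoters and enhancers in use, H3K36 methylation marks transcribed gene bodies, and H3K9 and H3K27 methylation mark silent chromatin. In macrophages, enhancer marking by the MLL family and removal of H3K27 methylation by KDM6B are known to take part in inflammatory gene activation. Arginine methyltransferases modify histones, but also splicing factors and signalling proteins.

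Depth was alike in the libraries, at 14881000 and 14740000 recovered reads for CuNZ@Gel replicates 1 and 2, and 14732000 and 13718000 for Gel replicates 1 and 2. Levels are in scaled CPM, which is CPM divided by 1 further factor per library. Log2 changes are CuNZ@Gel minus Gel on the log2(scaled CPM + 1) scale, ± the standard error of limma, and a gene is called raised or lowered at an adjusted p under 0.05 over all tested genes. The 10 macrophage markers summed to 9164 and 8924 scaled CPM in CuNZ@Gel and to 5665 and 5833 in Gel, with Mertk near 0 (at most 0.883 scaled CPM). Lyz2 made up most of this sum, at 6000.1 and 5776 scaled CPM in CuNZ@Gel and 3004 and 3155 in Gel. Of the 9 macrophage markers tested 6 were raised, while Cd68 (-0.23) and Fcgr1 (-0.82) were lowered and Spi1 was not called. The marker lists of 5 other cell types (T cells, fibroblasts, epithelium, endothelium and neutrophils) summed to at most 9.9 scaled CPM in any library, with Cd3e, Cd3g, S100a9 and Mpo at 0 in all 4. The endothelial list summed to 9.77 and 9.9 scaled CPM in CuNZ@Gel and to 2.25 and 2.73 in Gel, with Pecam1 and Vwf raised (1.37 and 1.29). The part of these marker differences in the results was not tested. In bulk RNA, a change in the RNA of each cell and a change in the share of cells that express a gene cannot be told apart.

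Histone methylation enzymes moved in both directions, with more raised than lowered. Of the 60 members, 58 passed the filter of 1 scaled CPM in at least 2 libraries. In CuNZ@Gel 28 of these 58 (48.3%) were raised and 15 (25.9%) were lowered, where 32.2% of all 11588 tested genes were raised and 34.8% were lowered. The share called in either direction was 74.1% of the members and 67.1% of all tested genes. The changes were modest. The median log2 change was 0.16 (range -0.81 to 1.48), against -0.03 over all tested genes. A change of at least 1 in size was seen in 3 members, Smyd4, Setd7 and Kdm5b, which is 5.17% of the members, against 13.2% of all tested genes. The CuNZ@Gel and Gel libraries did not overlap for 47 of the 58 (81.0%), against 83.2% of all tested genes. CuNZ@Gel lay above Gel in 29 of these and below it in 18, against 39.8% and 43.5% of all tested genes. Against a minimum fold of 1.5 (limma treat), 4 members were raised (Smyd4, Setd7, Kmt2d and Kdm5b) and 0 lowered, where 8.76% and 8.11% of all tested genes were raised and lowered. A correction for transcript length and GC content, described after the classes, turned the balance round, to 14 members raised and 23 lowered. A fit with 1 library left out has 1 group without a replicate, and its calls can be less strict than those of the main fit. With each library left out in turn, 28 of the 43 calls held in all 4 fits. The members raised numbered 29, 22, 23 and 26 without CuNZ@Gel replicate 2, CuNZ@Gel replicate 1, Gel replicate 1 and Gel replicate 2.

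Writers and erasers each had more genes raised than lowered, and the difference between the classes was not tested. Among 35 tested writers 15 were raised and 10 lowered (median change 0.09 on the log2 scale). Among 15 erasers 9 were raised and 3 lowered, with a median of 0.31. Over all tested genes 32.2% were raised and 34.8% lowered. With the correction for length and GC content writers had 8 raised and 17 lowered (median -0.15), and erasers 4 and 5 (median 0.02). Within the writers, the lysine enzymes (14 raised and 5 lowered of 27, median 0.24) and the arginine enzymes (1 raised and 5 lowered of 8, median -0.48) had medians of opposite sign. After the correction for length and GC content both medians were negative, at -0.07 for the lysine enzymes (7 raised and 11 lowered) and -0.39 for the arginine enzymes. Leaving out 1 library mattered most for the lowered erasers: none of Kdm4a, Kdm4b and Kdm6b remained called without Gel replicate 1. Summed over the class, erasers stood at 689 and 661 scaled CPM in CuNZ@Gel against 587 and 573 in Gel, and writers at 1973 and 1834 in CuNZ@Gel against 1861 and 1865 in Gel. In the deposited scaling the eraser sums did not overlap between the groups, and the writer sums did. This contrast depends on the scaling of the libraries, and the sums are not corrected for length.

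**Figure D1:**
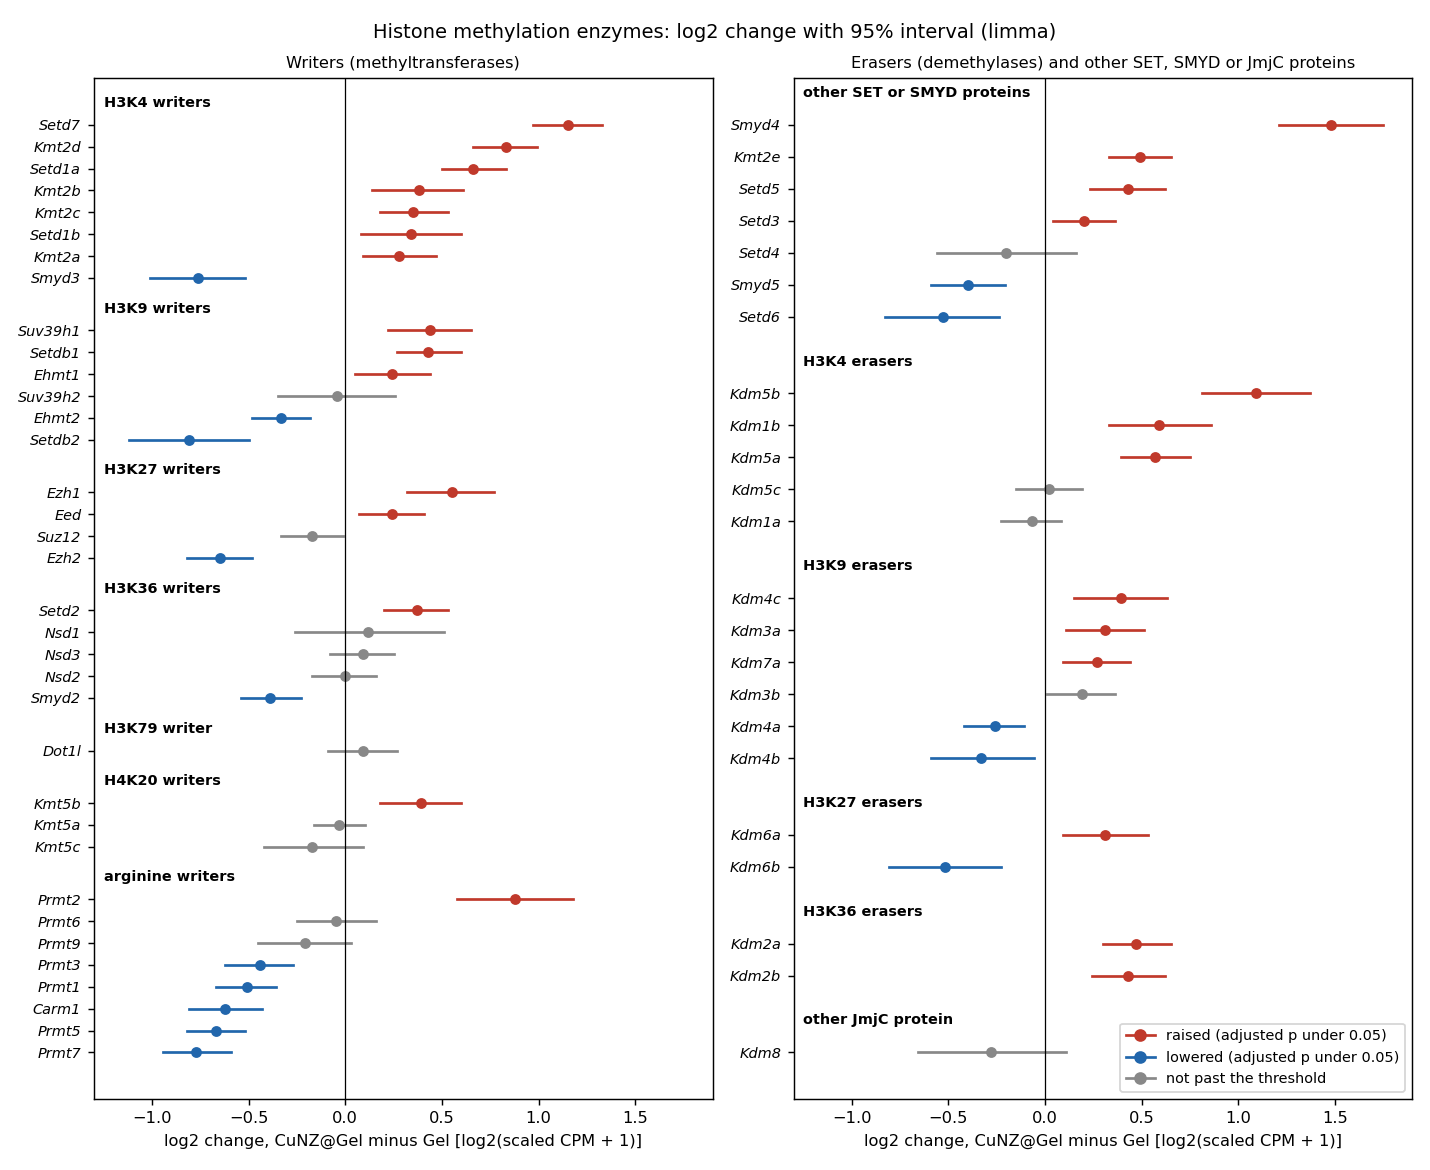
Log2 change (CuNZ@Gel minus Gel, x axis) of the 58 tested histone methylation enzymes by class, with points for the limma estimate and bars for its 95% interval. Red points are raised and blue points lowered at an adjusted p under 0.05. The H3K4 writers lie to the right except Smyd3, and the arginine writers lie to the left except Prmt2.

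The H3K4 methyltransferases were the lysine class with the most raised genes: 7 of 8 tested were raised and 1, Smyd3, was lowered. Over all tested genes 32.2% were raised and 34.8% lowered. All 8 have transcripts in the longest of 5 length groups, where 54.8% of all genes were raised and 16.3% lowered. With the length and GC correction the class had 3 raised and 3 lowered. Setd7, which places a single methyl group on H3K4 and also methylates non-histone proteins, stood at 104 and 86.9 scaled CPM in CuNZ@Gel against 40.4 and 44.0 in Gel. Its log2 change of 1.15 ± 0.087 (adjusted p = 2.19e-10) was the largest of all writers. Kmt2d, the MLL4 enzyme that marks enhancers, had 115 and 102 scaled CPM in CuNZ@Gel against 63.6 and 57.9 in Gel (0.83 ± 0.078, adjusted p = 7.82e-09). Setd1a, the catalytic subunit of a COMPASS complex that trimethylates H3K4 at promoters, had 78.8 and 72.2 in CuNZ@Gel against 48.4 and 46.3 in Gel (0.66 ± 0.080, adjusted p = 2.87e-07). For these 3 genes both CuNZ@Gel libraries lay well above both Gel libraries. The remaining raised members, Kmt2a, Kmt2b, Kmt2c and Setd1b, changed by 0.28 to 0.38, and none of these 4 remained raised after the length and GC correction. Without CuNZ@Gel replicate 1, which was the higher of its pair for each of them, Kmt2b (0.20, adjusted p = 0.179), Kmt2a (0.12, adjusted p = 0.262) and Setd1b (0.09, adjusted p = 0.585) were no longer called. Smyd3, a SET and MYND domain enzyme given H3K4 and also cytoplasmic kinase substrates, went the other way, with 12.8 and 11.7 scaled CPM in CuNZ@Gel against 21.2 and 21.9 in Gel (-0.76 ± 0.12, adjusted p = 8.06e-06). The ratio of Smyd3 to Setd7, per length of the longest annotated transcript, was 0.133 and 0.146 in CuNZ@Gel against 0.564 and 0.537 in Gel. Smyd1, a muscle gene, was not tested, with 3 reads in the CuNZ@Gel libraries together and 0 in the Gel libraries. In scaled CPM, 3 reads correspond to 0.189 and 0.19 in the CuNZ@Gel libraries and to 0.217 and 0.234 in the Gel libraries.

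**Figure D2:**
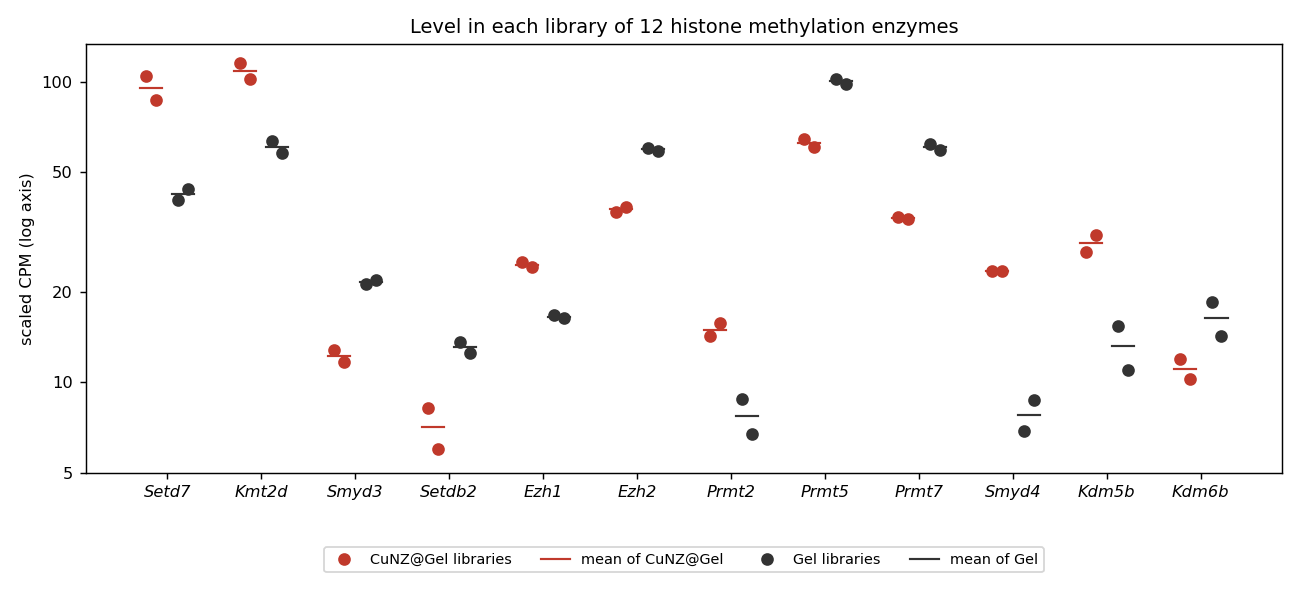
Level (scaled CPM, log axis) of 12 histone methylation enzymes in each of the 2 CuNZ@Gel libraries (red, left of each gene) and the 2 Gel libraries (black, right), with lines for the group means. The 12 genes were picked from the called members, and the groups do not overlap for any of them. The groups also do not overlap for 83.2% of all tested genes. The pairs Ezh1 and Ezh2, Prmt2 and Prmt5, and Setd7 and Smyd3 differ in direction.

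The H3K4 demethylases were raised as well, in 3 of 5 cases, with none lowered. Over all tested genes 32.2% were raised and 34.8% lowered. Kdm5b, which removes di- and trimethylation, had 27 and 30.9 scaled CPM in CuNZ@Gel against 15.4 and 11 in Gel (1.09 ± 0.13, adjusted p = 3.69e-07). Its paralog Kdm5a had 74.5 and 70.9 in CuNZ@Gel against 44.4 and 53.2 in Gel (0.57 ± 0.087, adjusted p = 6.83e-06). Kdm1b, a flavin-dependent demethylase, had 16.2 and 15.7 in CuNZ@Gel against 10.8 and 9.73 in Gel (0.59 ± 0.13, adjusted p = 3.43e-04). Both CuNZ@Gel libraries exceeded both Gel libraries for each. After the length and GC correction Kdm5a was not called (0.04, adjusted p = 0.612), and the class had 2 raised and 1 lowered. Kdm1a, the LSD1 enzyme of the CoREST complex, and Kdm5c did not pass, with 95% intervals of -0.23 to 0.08 and -0.15 to 0.19. In sum the H3K4 writers stood at 525 and 447 scaled CPM in CuNZ@Gel against 329 and 322 in Gel, and the H3K4 erasers at 239 and 243 in CuNZ@Gel against 200.2 and 197 in Gel. Transcripts of the enzymes that place this mark and of those that remove it summed higher in each CuNZ@Gel library than in either Gel library.

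The H3K9 methyltransferases were divided, with 3 of 6 raised and 2 lowered, where 32.2% of all tested genes were raised and 34.8% lowered. Setdb1, the partner of KAP1 in retroelement silencing, had 73.0 and 69.4 scaled CPM in CuNZ@Gel against 52.7 and 52.1 in Gel (0.43 ± 0.077, adjusted p = 4.30e-05). Its relative Setdb2 had 8.19 and 6.0 in CuNZ@Gel against 13.6 and 12.5 in Gel (-0.81 ± 0.15, adjusted p = 7.38e-05), the most negative change of all members. These paralogs therefore moved in opposite directions. As deposited, the pair that forms the G9a and GLP heterodimer was split too. Once length and GC content were corrected for, G9a (Ehmt2) remained lowered (-0.21), but GLP (Ehmt1) was not called (0.05, adjusted p = 0.646). Ehmt2 (G9a) had 83.2 and 90.9 scaled CPM in CuNZ@Gel against 113 and 106 in Gel (-0.33 ± 0.072, adjusted p = 4.34e-04). Ehmt1 (GLP) had 50.2 and 49.9 in CuNZ@Gel against 46.7 and 37.8 in Gel (0.24 ± 0.095, adjusted p = 0.0273), a call that was lost without Gel replicate 2 (0.10, adjusted p = 0.488). Suv39h1, which trimethylates H3K9 in heterochromatin, had 42.9 and 38.8 in CuNZ@Gel against 26.7 and 33.6 in Gel (0.44 ± 0.11, adjusted p = 0.00105). Suv39h2 did not pass and its libraries overlapped (95% interval -0.35 to 0.26).

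Among the H3K9 demethylases 3 of 6 were raised and 2 lowered, all by less than 0.4 in size. Of all tested genes 32.2% were raised and 34.8% lowered. Kdm4c, which acts on H3K9 and H3K36, had 29.6 and 24.9 scaled CPM in CuNZ@Gel against 18.8 and 22.3 in Gel (0.39 ± 0.11, adjusted p = 0.00529), whereas Kdm4a had 61.2 and 62.9 in CuNZ@Gel against 77.4 and 72.2 in Gel (-0.26 ± 0.076, adjusted p = 0.00431). Kdm7a had 84.9 and 71.6 in CuNZ@Gel against 66.1 and 63.3 in Gel (0.27 ± 0.083, adjusted p = 0.00778), and Kdm3a 51.9 and 47.9 in CuNZ@Gel against 36.1 and 44.5 in Gel (0.31 ± 0.10, adjusted p = 0.00815). Kdm3a was not called after the length and GC correction (0.10, adjusted p = 0.288). None of the 5 calls in this class, which also include Kdm4b (-0.33 ± 0.13), held in every fit with 1 library left out. Without Gel replicate 1 the changes of Kdm4a, Kdm4b, Kdm4c and Kdm3a were -0.21, -0.24, 0.27 and 0.16 (adjusted p = 0.0809, 0.214, 0.0754 and 0.234). Without CuNZ@Gel replicate 1 those of Kdm4c and Kdm7a were 0.27 and 0.14 (adjusted p = 0.0738 and 0.174), and without CuNZ@Gel replicate 2 that of Kdm4b was -0.30 (adjusted p = 0.0892).

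Polycomb repressive complex 2, which methylates H3K27, showed opposite changes in its alternative catalytic subunits. Ezh2, the form typical of dividing cells, had 36.8 and 38.3 scaled CPM in CuNZ@Gel against 60.0 and 58.8 in Gel (-0.65 ± 0.082, adjusted p = 6.26e-07). Ezh1, the form of resting cells, had 25 and 24.1 in CuNZ@Gel against 16.7 and 16.3 in Gel (0.55 ± 0.11, adjusted p = 1.59e-04). The groups did not overlap for either gene. Per length of the longest annotated transcript, Ezh2 exceeded Ezh1 by 2.23-fold and 2.41-fold in the CuNZ@Gel libraries, against 5.44-fold and 5.46-fold in the Gel libraries. Of the shared core, Eed had 63.0 and 61.9 in CuNZ@Gel against 50.1 and 55.6 in Gel (0.24 ± 0.081, adjusted p = 0.0131), a call lost without Gel replicate 1 (0.16, adjusted p = 0.196). Suz12 did not pass, with 108 and 99.7 in CuNZ@Gel against 108 and 126 in Gel (adjusted p = 0.0616). The H3K27 demethylases were also split. Kdm6b (JMJD3), which is known to be induced by inflammatory stimuli in macrophages, had 11.9 and 10.2 in CuNZ@Gel against 18.4 and 14.2 in Gel (-0.52 ± 0.14, adjusted p = 0.00255). Kdm6a (UTX) had 25.5 and 24.6 in CuNZ@Gel against 20.3 and 19.6 in Gel (0.31 ± 0.11, adjusted p = 0.0123). The Kdm6b call was lost without Gel replicate 1, the higher of its pair (-0.34, adjusted p = 0.0719). That of Kdm6a was lost without CuNZ@Gel replicate 1 or without Gel replicate 2 (0.29 in both, adjusted p = 0.0577 and 0.0629), and also after the length and GC correction (0.01, adjusted p = 0.913).

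The upstream sequences of Ezh2 and Ezh1 are shown because these paralogs moved apart. They are the 250 bases before the RefSeq start site on build GRCm38.p6, and a RefSeq window was found for 47 of the 60 members. Capitals mark the core of the antioxidant response element (TGACNNNGC on either strand), the sequence bound by NRF2.
Ezh2 (chr6:47595031-47595280, minus strand): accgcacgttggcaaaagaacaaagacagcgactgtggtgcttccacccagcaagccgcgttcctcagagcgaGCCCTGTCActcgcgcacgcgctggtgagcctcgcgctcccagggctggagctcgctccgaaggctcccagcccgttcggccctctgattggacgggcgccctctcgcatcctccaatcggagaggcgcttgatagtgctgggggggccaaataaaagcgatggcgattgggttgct
Ezh1 (chr11:101226464-101226713, minus strand): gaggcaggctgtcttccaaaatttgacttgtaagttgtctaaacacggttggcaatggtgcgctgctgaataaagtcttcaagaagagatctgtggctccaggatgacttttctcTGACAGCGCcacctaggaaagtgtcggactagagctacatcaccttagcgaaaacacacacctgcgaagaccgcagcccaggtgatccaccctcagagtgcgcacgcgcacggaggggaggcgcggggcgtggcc
Each window holds 1 match, with its first base at position -177 from the start in Ezh2 and at position -135 in Ezh1. A match was found in 10.2% of all 32851 windows of the table, in 5 of 32 windows of raised members and in 1 of 12 of lowered members. These are letters in a window, not sites shown to be bound.

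Changes of the H3K36, H3K79 and H4K20 methyltransferases were all under 0.4 in size, with 2 of 9 raised and 1 lowered. The shares over all tested genes were 32.2% raised and 34.8% lowered. Setd2, the enzyme of H3K36 trimethylation, had 113 and 95.8 scaled CPM in CuNZ@Gel against 78.5 and 82.7 in Gel (0.37 ± 0.079, adjusted p = 3.75e-04). Smyd2 had 62.3 and 62.3 in CuNZ@Gel against 83.6 and 80.0 in Gel (-0.39 ± 0.074, adjusted p = 9.79e-05). Nsd1, Nsd2 and Nsd3, which dimethylate H3K36, did not pass and overlapped between the groups. Their 95% intervals were -0.26 to 0.51, -0.17 to 0.16 and -0.08 to 0.25, and Nsd1 rested on 109 reads in CuNZ@Gel and 82 in Gel. Dot1l, the H3K79 methyltransferase, did not pass either (-0.09 to 0.27). Of the H4K20 enzymes, Kmt5b had 41.2 and 37.8 in CuNZ@Gel against 27 and 32.9 in Gel (0.39 ± 0.10, adjusted p = 0.00201), a call lost without Gel replicate 1 (0.25, adjusted p = 0.0695). Kmt5b was also not called after the length and GC correction (0.10, adjusted p = 0.346). Kmt5a, which places the first methyl group on H4K20, had the highest level per length of the tested members in both groups, at 66.3 scaled CPM per kb in CuNZ@Gel and 67.7 in Gel. Its change had a 95% interval of -0.16 to 0.10. Kdm2a and Kdm2b, the genes classed here as H3K36 demethylases, were both raised. The Kdm4 genes (Kdm4c raised, Kdm4a and Kdm4b lowered) were counted in the H3K9 class. Kdm2a had 77.6 and 75.1 in CuNZ@Gel against 59.5 and 50.4 in Gel (0.47 ± 0.084, adjusted p = 4.41e-05), and Kdm2b, which recruits a Polycomb complex to CpG islands, had 42.0 and 40.3 in CuNZ@Gel against 30.9 and 29.7 in Gel (0.43 ± 0.090, adjusted p = 2.84e-04). The Kdm2a call was lost after the length and GC correction (0.07, adjusted p = 0.436).

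The arginine methyltransferases moved mostly downwards, with 5 of 8 tested lowered and 1 raised. Among all tested genes 34.8% were lowered and 32.2% raised. All tested members but Prmt9 have transcripts of 1885 to 3818 nt. Between 1885 and 2846 nt, 45.0% of all genes were lowered and 21.9% raised. Between 2846 and 3818 nt, 35.3% were lowered and 28.1% raised. After the length and GC correction the class had 6 lowered and 1 raised. Prmt7, which makes monomethylarginine, had 35.4 and 34.9 scaled CPM in CuNZ@Gel against 61.9 and 59.1 in Gel (-0.77 ± 0.083, adjusted p = 5.99e-08). Prmt5, the main enzyme of symmetric dimethylation, had 64.4 and 60.7 in CuNZ@Gel against 102 and 98.1 in Gel (-0.67 ± 0.073, adjusted p = 6.88e-08). Prmt1, the main enzyme of asymmetric dimethylation, had 74.5 and 78.7 in CuNZ@Gel against 115 and 105 in Gel (-0.51 ± 0.073, adjusted p = 2.93e-06). Every CuNZ@Gel library lay below every Gel library for these genes. Carm1, a coactivator that methylates H3, had 38.8 and 38.3 in CuNZ@Gel against 54.4 and 65.5 in Gel (-0.62 ± 0.091, adjusted p = 4.71e-06), and Prmt3, which methylates a ribosomal protein, changed by -0.44 ± 0.084 (adjusted p = 8.92e-05). Prmt2, a family member with weak activity of its own, was the exception, with 14.2 and 15.7 in CuNZ@Gel against 8.77 and 6.70 in Gel (0.88 ± 0.14, adjusted p = 1.73e-05). Prmt6 and Prmt9 did not pass (-0.25 to 0.16 and -0.45 to 0.03), and Prmt8, a brain gene, was listed at 0 in all 4 libraries. The class summed to 312 and 315 scaled CPM in CuNZ@Gel against 447 and 438 in Gel. All 6 called members kept their direction with any 1 library left out, in fits where 1 group has no replicate.

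Upstream sequences are shown for the type I enzymes Prmt1 and Prmt3 and for Ehmt2, because these were the lowered members whose windows hold an E-box (CACGTG, the same on both strands, in capitals), the sequence bound by MYC and related factors. Prmt5, also lowered, is shown beside them and holds none.
Prmt1 (chr7:44986421-44986670, minus strand): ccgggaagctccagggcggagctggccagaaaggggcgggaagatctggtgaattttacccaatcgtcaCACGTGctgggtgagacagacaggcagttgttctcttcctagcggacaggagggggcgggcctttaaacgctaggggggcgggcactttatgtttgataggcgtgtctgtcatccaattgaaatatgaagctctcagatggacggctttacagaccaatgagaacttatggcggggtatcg
Prmt3 (chr7:49778108-49778357, plus strand): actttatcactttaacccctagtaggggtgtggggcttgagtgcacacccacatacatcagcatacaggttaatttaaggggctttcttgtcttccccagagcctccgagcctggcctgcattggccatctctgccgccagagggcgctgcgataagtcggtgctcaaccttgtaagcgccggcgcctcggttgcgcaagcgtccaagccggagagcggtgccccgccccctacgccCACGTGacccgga
Ehmt2 (chr17:34898224-34898473, plus strand): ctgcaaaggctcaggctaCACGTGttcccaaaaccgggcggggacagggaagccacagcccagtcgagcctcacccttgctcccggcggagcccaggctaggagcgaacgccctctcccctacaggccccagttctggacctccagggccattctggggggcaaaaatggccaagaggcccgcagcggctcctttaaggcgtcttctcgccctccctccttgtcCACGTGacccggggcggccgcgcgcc
Prmt5 (chr14:54517471-54517720, minus strand): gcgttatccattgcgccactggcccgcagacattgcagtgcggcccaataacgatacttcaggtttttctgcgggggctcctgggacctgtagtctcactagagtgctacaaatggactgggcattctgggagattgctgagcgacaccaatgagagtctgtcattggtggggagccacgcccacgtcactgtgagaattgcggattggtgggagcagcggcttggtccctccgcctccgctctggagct
The match begins at position -181 from the start site in Prmt1 and at position -13 in Prmt3. The Ehmt2 window holds 2 matches, and a second RefSeq start of the gene has 1 more in its own window. An E-box was found in 4 of 12 windows of lowered members (33.3%), which belong to 3 of 11 genes. It was found in 2 of 32 windows of raised members (6.25%) and in 0 of 13 windows of members not called. The share was 10.0% of all member windows and 6.02% of all windows. E2F motifs (TTTCCCGC or TTTGGCGC) were in none of the windows of raised or lowered members, in 2 of 13 windows of members not called and in 1.3% of all windows. CRE motifs (TGACGTCA) were likewise in none of the windows of raised or lowered members, in 2 of 13 windows of members not called and in 1.55% of all windows. Both strands were searched. The windows of a gene can overlap, the motifs were chosen with the changes known, and no test was made.

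The SET and SMYD proteins with other substrates held the largest single change. Smyd4, a little-studied SMYD protein linked to heart development, had 23.5 and 23.4 scaled CPM in CuNZ@Gel against 6.88 and 8.72 in Gel, 3.00-fold by the means (1.48 ± 0.13, adjusted p = 3.01e-09). Kmt2e (MLL5), whose SET domain is regarded as inactive, had 113 and 102 in CuNZ@Gel against 72.5 and 80.6 in Gel (0.49 ± 0.076, adjusted p = 1.0e-05). Setd5 had 105 and 80.2 in CuNZ@Gel against 65.8 and 70.3 in Gel (0.43 ± 0.094, adjusted p = 4.53e-04). These 3 genes were higher in both CuNZ@Gel libraries than in either Gel library. After the length and GC correction Kmt2e (0.11, adjusted p = 0.112) and Setd5 (0.15, adjusted p = 0.107) were not called. Smyd5 had 28.3 and 27.5 in CuNZ@Gel against 36.8 and 37.5 in Gel (-0.40 ± 0.093, adjusted p = 6.98e-04). Setd6, which methylates the NF-kB subunit RelA, had 7.94 and 8.95 in CuNZ@Gel against 14.1 and 11.4 in Gel (-0.53 ± 0.14, adjusted p = 0.00249), a call lost without Gel replicate 1 (-0.39, adjusted p = 0.0525). Setd3, the actin histidine methyltransferase, was raised by 0.20 ± 0.077 (adjusted p = 0.0277) and was not called without CuNZ@Gel replicate 2 or Gel replicate 1 (0.15 and 0.16, adjusted p = 0.166 and 0.205). Setd6 was also not called after the length and GC correction (-0.28, adjusted p = 0.0694). Setd4 and the JmjC protein Kdm8 did not pass (-0.56 to 0.16 and -0.66 to 0.11).

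Transcript length moved with these changes. Many of the enzymes have very long mRNAs: the median of the longest annotated transcript was 6130 nt for the lysine writers, 5935 nt for the erasers and 2998 nt for the arginine writers, against 3302 nt over tested genes. Across the 10898 tested genes with a length, which are not replicates, the log2 change had a Pearson r of 0.274 with log2 length. Across the 58 members r was 0.446. Of 5 equal groups of genes by length, the longest (5150 nt and above) had 54.8% of its genes raised and 16.3% lowered, with a median change of 0.30. This group held 27 members, of which 19 were raised and 2 lowered, with a median of 0.35. In the next group, 3818 to 5150 nt, 4 of 10 members were raised and 3 lowered, where 37.2% of all genes were raised and 26.0% lowered. In the 2 shortest groups, up to 2846 nt, 2 of 12 members were raised and 6 lowered, where 18.2% and 21.9% of all genes were raised and 52.7% and 45.0% lowered.

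**Figure D3:**
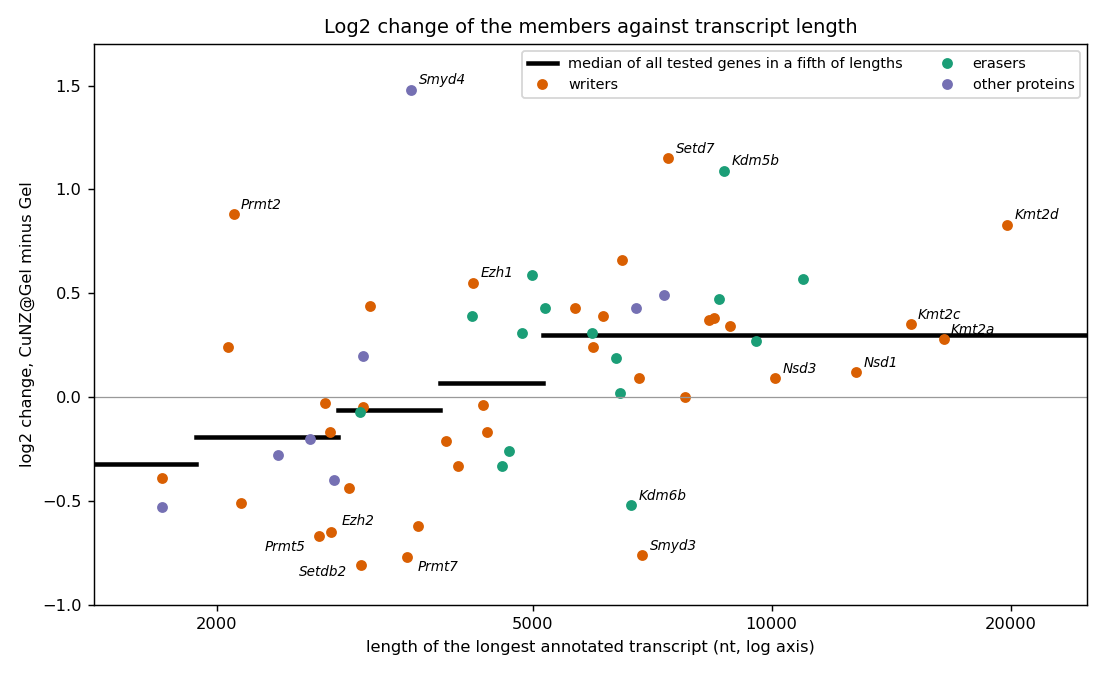
Log2 change (CuNZ@Gel minus Gel, y axis) of the 58 tested members against the length of the longest annotated transcript (nt, log axis), coloured by role, with bars for the median of all tested genes in each of 5 equal groups by length. The bars climb from -0.32 in the shortest group to 0.30 in the longest, and Smyd3 and Kdm6b lie below the bar of the longest group while Smyd4, Prmt2, Setd7 and Kdm5b lie above theirs.

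After each library was corrected for transcript length and GC content, 14 members were raised and 23 lowered (median change -0.04). Of 10898 genes then tested, 30.6% were raised and 35.6% lowered. Erasers had 4 raised and 5 lowered, writers 8 and 17, and the H3K4 writers 3 and 3. The changes of Kmt2a and Kmt2c became negative (-0.28 and -0.24, adjusted p = 0.00213 and 0.00462), and so did that of Kdm7a (-0.22, adjusted p = 0.00851). With the correction by 20 groups of length instead, Kmt2a, Kmt2c and Kdm7a were not called (-0.13, -0.06 and -0.15, adjusted p = 0.139, 0.470 and 0.0725), and the H3K4 writers had 3 raised and 1 lowered. Setd2 changed sign without passing (-0.07, adjusted p = 0.350), and Nsd1, Nsd2, Nsd3, Suz12, Prmt9 and Kdm5c became lowered. Of the 43 calls, 28 were the same after the correction. Among these, Setd7 (0.79), Setd1a (0.49), Suv39h1 (0.49), Ezh1 (0.50), Prmt2 (1.10), Smyd4 (1.51) and Kdm5b (0.67) remained raised. Smyd3 (-1.10), Setdb2 (-0.83), Ezh2 (-0.64), Prmt7 (-0.71), Prmt5 (-0.53), Carm1 (-0.52) and Kdm6b (-0.65) remained lowered. The length used is that of the longest annotated transcript, which need not be the one expressed. Which transcript was expressed was not tested. The arginine writers had 1 raised and 6 lowered after the correction. Kmt2d remained raised at 0.32 (adjusted p = 1.63e-04), but only 7 tested genes have a longer transcript, so the correction is poorly determined at its length. What links length to the change was not tested.

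**Figure D4:**
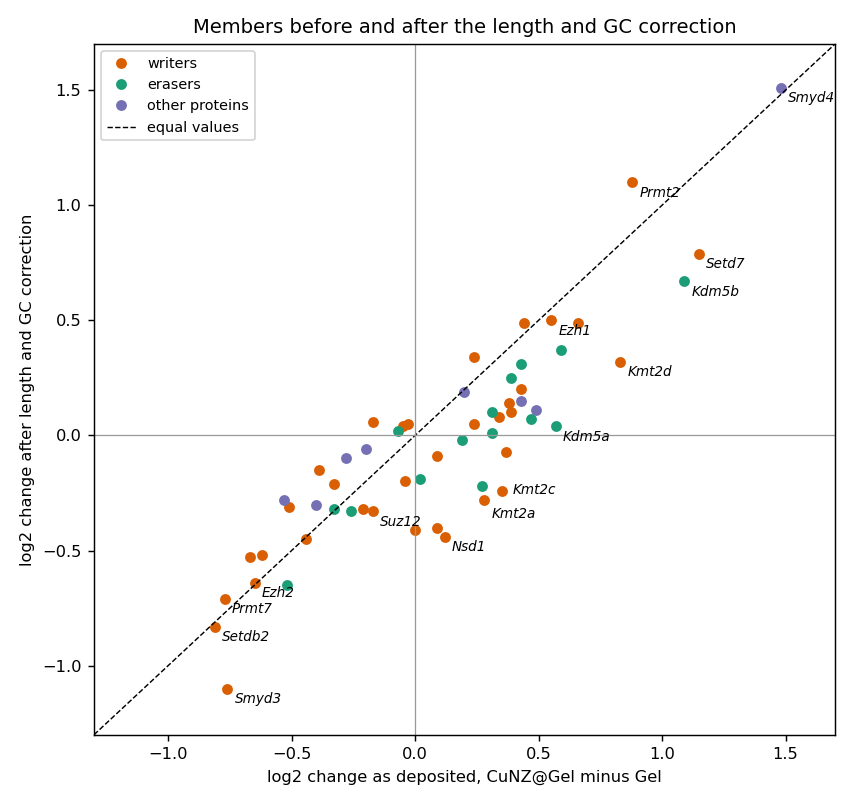
Log2 change (CuNZ@Gel minus Gel) of the 58 tested members as deposited (x axis) and after the length and GC correction (y axis), coloured by role, with a dashed line of equal values. Kmt2d, Kmt2c, Kmt2a and Kdm5a fall below the line, whereas Smyd4, Setdb2, Ezh1 and Ezh2 lie within 0.1 of it.

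The scale of the libraries set part of the balance. With libraries scaled by total reads only, the median of all tested genes shifted by 0.18, and the median of the members stood 0.18 above that of all genes under both scalings. In that scaling 34 members were raised and 12 lowered, where 43.3% of all genes were raised and 24.8% lowered. Erasers then had 11 raised and 1 lowered, or 91.7% of the called, against 75.0% with the deposited scaling. The H3K4 writers (7 raised, 1 lowered) and the arginine writers (1 raised, 5 lowered) had the same counts under both. Ehmt2, Kdm4a and Kdm4b were no longer called under this scaling.

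Annotated exons of some members overlap another gene on the opposite strand, and whether counting used strand is not given in the sources used here. Exons of Kmt2e and Srpk2 share up to 972 nt, and Srpk2 stood at 103 and 101 scaled CPM in CuNZ@Gel against 73.2 and 74.0 in Gel. Carm1 shares up to 806 nt with Yipf2 (10.4 and 10.3 in CuNZ@Gel against 14.1 and 12.7 in Gel), and Kdm2b up to 627 nt with Rnf34 (31.3 and 31.2 in CuNZ@Gel against 22.7 and 26.2 in Gel). In these 3 pairs the neighbour differed in the same direction as the member. Kdm1b shares up to 505 nt with Dek, which differed in the opposite direction (246 and 242 in CuNZ@Gel against 296 and 322 in Gel). Setd1a shares up to 1056 nt with Gm49388 on its own strand, for which no value is used here. The part of shared reads in these values was not tested.

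Partners of the enzymes, described from lists chosen with earlier results known, moved both ways as well. Among 13 COMPASS and MLL subunits and cofactors 3 were raised and 6 lowered, where 32.2% of all tested genes were raised and 34.8% lowered. These shares were 43.3% and 24.8% with total reads only, and 30.6% and 35.6% with the length and GC correction. Bod1l, a SETD1A partner, averaged 91.2 scaled CPM in CuNZ@Gel and 55.5 in Gel (0.70), whereas Wdr82, which targets the SETD1 complexes, averaged 49.9 in CuNZ@Gel and 72.7 in Gel (-0.53), and Pagr1a, of the MLL3 and MLL4 complexes, 17.6 in CuNZ@Gel and 30.0 in Gel (-0.73). PRC2 partners had 2 of 8 raised and 2 lowered (median -0.02). In this list Mtf2 and Phf1, of the Polycomb-like family, were raised by 0.70 and 0.75, and Epop, a PRC2 cofactor, was lowered (-1.07). Of 9 H3K9 readers and partners 3 were raised and 5 lowered (median -0.34). There Atf7ip, which stabilizes SETDB1, averaged 76.0 in CuNZ@Gel and 31.0 in Gel (1.26, adjusted p = 2.67e-10), and Mphosph8, of the HUSH complex, 127 in CuNZ@Gel and 70.4 in Gel (0.85). Cbx3, the HP1 gamma reader, averaged 114 in CuNZ@Gel and 167 in Gel (-0.54). With total reads only, the COMPASS list had 6 raised and 3 lowered, the PRC2 list 4 and 1, and the H3K9 list 4 and 4, so the balance of these lists depends on the scaling. With the length and GC correction the COMPASS list had 3 raised and 5 lowered, the PRC2 list 2 and 4, and the H3K9 list 2 and 7. Bod1l then changed by 0.20 (adjusted p = 0.0111).

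The next lists stand beside 32.2% of all tested genes raised and 34.8% lowered (43.3% and 24.8% with total reads only). Of 5 partners of arginine enzymes 4 were lowered and none raised (2 lowered and 1 raised with total reads only). The lowered genes include Riok1 (-0.43), an adaptor of PRMT5, and Btg2 and Btg1 (-0.53 and -0.23), which bind PRMT1. Wdr77, the obligate partner of PRMT5, did not pass, at 99.6 scaled CPM in CuNZ@Gel and 93.6 in Gel. Of 7 eraser partners 4 were lowered and 1 raised (3 lowered and 2 raised with total reads only). Hmg20b, a subunit of the LSD1 and CoREST complex, averaged 21.3 in CuNZ@Gel and 48.9 in Gel (-1.16, adjusted p = 5.57e-10), Rcor2 averaged 2.40 in CuNZ@Gel and 4.92 in Gel (-0.79), and Gfi1, a repressor that recruits LSD1, 1.39 in CuNZ@Gel and 4.48 in Gel (-1.18). Of 9 tested genes of methyl donor supply 4 were raised and 3 lowered (6 and 2 with total reads only). Mat2a, which makes S-adenosylmethionine, averaged 203 in CuNZ@Gel and 128 in Gel (0.67). Ahcy, which clears the inhibitory by-product S-adenosylhomocysteine, averaged 18.1 in CuNZ@Gel and 33.2 in Gel (-0.84), and its relative Ahcyl2 46.6 in CuNZ@Gel and 25.2 in Gel (0.86). Of 12 tested histone methylation enzymes whose symbols fall outside the rule, 4 were raised and 3 lowered (5 and 1 with total reads only). They include Ash1l, an H3K36 methyltransferase (0.90), Jmjd1c, of the KDM3 family (0.56), and Uty, the Y-linked relative of Kdm6a (0.70), all raised. With the length and GC correction Ash1l (0.36) and Uty (0.46) remained raised, and Jmjd1c was not called (0.12, adjusted p = 0.0601). This last list then had 3 raised and 3 lowered.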

How the data were processed

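For each library the authors deposited log2 values by gene symbol. The values themselves show the form log2(x + 1), where x is a CPM value divided by a factor particular to the library. The submitters' processing notes list GATK, STAR, fastp, Salmon and GRCm39. Not given in the sources used here are tool versions and roles, annotation, strand use, any UMI treatment and how values were normalized. The library kit was CORALL RNA-seq V2, per the labels' protocols. The value of 1 read was recovered from the steps of the low values: 92.6% to 93.5% of the values above 0 and at most 1 were whole multiples of it within 0.02 reads. The further factors were 1.066 and 1.069 in CuNZ@Gel and 0.937 and 0.936 in Gel. Floors of 3 reads cover counting error only.

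Because the files held log2 values, limma 3.58.1 (R 4.3.3; group as the only term, variance trend on the mean) was fitted to the 11588 genes that reached 1 scaled CPM in 2 or more libraries. The deposited pseudocount of 1 understates changes of low genes. Benjamini-Hochberg adjustment ran over all tested genes. Per gene, libraries of a group differed beyond sampling noise (mean chi-square 4.33 in CuNZ@Gel and 3.67 in Gel). The procedure was tested on simulated data. The members, lists and classes were chosen with earlier results of these data known. Members past the threshold are given with the value in each library if their change is at least 0.5 in size. The same holds for members past it that are among the 4 smallest p of their class. Up to 3 partners per list are given with group means or the log2 change. Other genes given with values were chosen after those were seen. Lengths and GC content are those of the longest GENCODE vM21 transcript (94.0% of tested genes, all 58 members), which is on another build, so no coordinates of it were used. Promoter windows are RefSeq's on GRCm38.p6. Alternatives were other scalings, limma-voom, other filters, a pseudocount of 0.1, a minimum fold of 1.5, 1 library left out, the replicate number as a block, and length corrections. A crossed block and a correction by 20 groups of length were added after seeing the data.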

Additional observations from a re-analysis of the deposited data

How the results depend on the processing

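Relative log expression and upper-quartile scaling, limma-voom, a pseudocount of 0.1 and a filter at 5 scaled CPM left each of the 35 members given with the value in each library on the same side of the threshold, and the counts of members, writers and erasers within 1.5 times. With the length and GC correction, 14 members were raised and 23 lowered (writers 8 and 17, erasers 4 and 5). With the correction by groups of length, added after seeing the data, 14 members, 8 writers and 4 erasers were raised. In these fits Kdm7a reversed to -0.22 and -0.15 and Setd2 to -0.07 and -0.05. Against a minimum fold of 1.5, 4 members, 2 writers and 1 eraser were raised, and 0 members, 0 writers and 0 erasers were lowered. Without a filter, 16 members and 8 writers were raised and 1 eraser was lowered. With total reads only, 1 eraser was lowered. The causes were not tested.

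With 1 library left out, members raised ranged from 22 to 29 and lowered from 12 to 16, writers raised from 12 to 16 and lowered from 10 to 11, and erasers raised from 6 to 10 and lowered from 0 to 3. With the replicate number as a block, 27 members were raised and 15 lowered, and none of the 35 members changed its call. The block with the length and GC correction gave 13 members, 8 writers and 3 erasers raised, 16 writers lowered, and Kdm7a and Setd2 at -0.22 and -0.07. Nothing in the labels pairs the libraries, and deviations of same-numbered libraries correlated at -0.116 across genes. A crossed block gave 29 raised and 16 lowered. Depth limits Smyd1, Prmt8, Kdm8 and Nsd1 most.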
